A study of Homo sapiens with 6 samples.

Results

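The genes described here are 10 components of Gq signalling in uveal melanoma: CYSLTR2, GNAQ, GNA11, PLCB4, PLCB3, PRKCD, PRKCE, RASGRP3, ARF6 and BAP1. They were chosen by symbol from the deposited gene table, and all 10 had a row among its 12306 rows. Each was followed in 92.1, a long-established cell line from a human uveal melanoma. Cells received 1 µM VS-4718, a drug that blocks focal adhesion kinase (FAK, the product of PTK2), or DMSO vehicle, and were lysed after 2 h; each group held 3 libraries. All 6 libraries came from the same line, grown in RPMI-1640 medium with 10% serum to 70% confluency, so the cells of both groups carry the mutations of that line. The design text calls the samples independent; whether these were separate cultures is not stated in the labels, so a p-value here reflects how much the libraries vary, which may be technical.

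Gq is a heterotrimeric G protein whose alpha subunit, encoded by GNAQ or its close relative GNA11, switches on phospholipase C beta when a receptor loads it with GTP. Phospholipase C beta cuts a membrane lipid into inositol trisphosphate, which releases calcium, and diacylglycerol, which recruits protein kinase C and the RAS activator RASGRP3. Most uveal melanomas carry an activating mutation in GNAQ or GNA11, and some in CYSLTR2 or PLCB4 instead; a second signal from the mutant G protein runs through TRIO and RHOA to FAK. BAP1 stands apart from this chain: it is a nuclear deubiquitinase and tumour suppressor that is often lost in metastasising uveal melanoma.

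In GNAQ the glutamine codon most often mutated in these tumours is number 209. It is shown here because the deposited values are per gene and cannot tell a mutant transcript from a normal one. The coding stretch below runs 5′ to 3′ from codon 199 to codon 219 of the reference transcript (GENCODE 29, GRCh38), with codon 209 in capitals.
GNAQ: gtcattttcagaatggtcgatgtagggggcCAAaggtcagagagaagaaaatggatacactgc
The codon lies at chr9:77794571-77794573 on the minus strand, in exon 5, and the stretch starts in exon 4. GNAQ and GNA11 each have 1077 coding bases. Over them, 78.55% of bases and 90.25% of encoded residues were the same, and the longest run of identical bases was 26.

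How far a row can be mixed with another gene was described by the share of a gene's 31-base words that also occur in GENCODE 29 transcripts of other genes. None of the words of PLCB4, PLCB3, PRKCD, PRKCE or BAP1 did. For CYSLTR2 the share was 0.203%, for ARF6 0.678% and for RASGRP3 2.20%. GNAQ shared 7.09% of its words, nearly all of them with its processed pseudogene GNAQP1, which held 464 of the 468 shared words. GNA11 shared 15.5%, of which KF456478.1 held the most (384 of 667 shared words). GNAQ and GNA11 thus had the highest shares of the 10. The transcript set behind the table is not known, so whether their rows hold signal of other genes was not tested.

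All 10 human genes are protein coding in GENCODE 29 on GRCh38. CYSLTR2 lies on chromosome 13 from 48653711 to 48711226, GNAQ on chromosome 9 from 77716087 to 78031458 and GNA11 on chromosome 19 from 3094410 to 3124004. PLCB4 lies on chromosome 20 from 9068763 to 9481242 and PLCB3 on chromosome 11 from 64251523 to 64269150. PRKCD (53156009 to 53192717) and BAP1 (52401013 to 52410350) are both on chromosome 3, and RASGRP3 (33436324 to 33564750) and PRKCE (45651345 to 46187990) both on chromosome 2. ARF6 is on chromosome 14 from 49893092 to 49897054. The values cover whole genes and no particular exon.

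Levels are given as log2 values on a TPM-like scale, taken here as abundance per transcript length relative to the library's total. Such values hold no read count, so the depth behind them is unknown. The labelled cell type was checked against 7 melanocyte lineage genes, all with a row. PMEL (12.24 ± 0.09 log2 units with VS-4718 and 12.21 ± 0.07 in vehicle; SD, n = 3 each), TYRP1 (11.14 ± 0.05 and 11.21 ± 0.06), SOX10 (8.17 ± 0.04 and 8.20 ± 0.04) and MITF (5.67 ± 0.20 and 5.55 ± 0.17) were present, whereas MLANA, TYR and DCT had means below 1 log2 unit in both groups. Of other cell types, 4 of 6 fibroblast markers had a row, with a summed level of 1.15 to 1.67 TPM-like units with VS-4718 and 0.506 to 1.45 in vehicle. The single immune and epithelial marker with a row, PTPRC and KRT18, were below 0 log2 units in every library. The 3 of 6 endothelial markers with a row summed to 23.9 to 28.8 TPM-like units with VS-4718 and 21.9 to 26.6 in vehicle. Most of this was EGFL7, which averaged 19.9 units with VS-4718 and 18.0 in vehicle, followed by PECAM1 (5.6 and 5.9). KDR averaged 0.19 and 0.32, and CDH5, VWF and TEK had no row. Row names follow mouse usage although the labels name a human line and GRCh38, and 9641 of the 12306 matched a human gene. The sources used here do not name the transcript set behind the table, so a level describes a row of this table.

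None of the 10 genes passed the test between VS-4718 and vehicle. Of the 10, 9 were abundant enough to be tested, and 0 of these 9 passed limma with Benjamini-Hochberg adjustment over all 9229 rows tested, where 12 rows or 0.13% passed (0.0433% higher and 0.0867% lower). At an unadjusted limma p under 0.05 stood 1 of the 9, GNA11, on the lower side, against 9.76% of all rows tested (3.02% higher and 6.74% lower). The groups did not overlap for 3 of the 9, GNA11 and RASGRP3 with the VS-4718 libraries below and BAP1 with them above, against 16.4% of all rows tested (11.2% lower and 5.15% higher). For the 9 genes the median log2 fold change was -0.11, against -0.03 over all rows tested, and 6 of the 9 had a lower mean with VS-4718, against 58.2% of all rows.

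**Figure D1:**
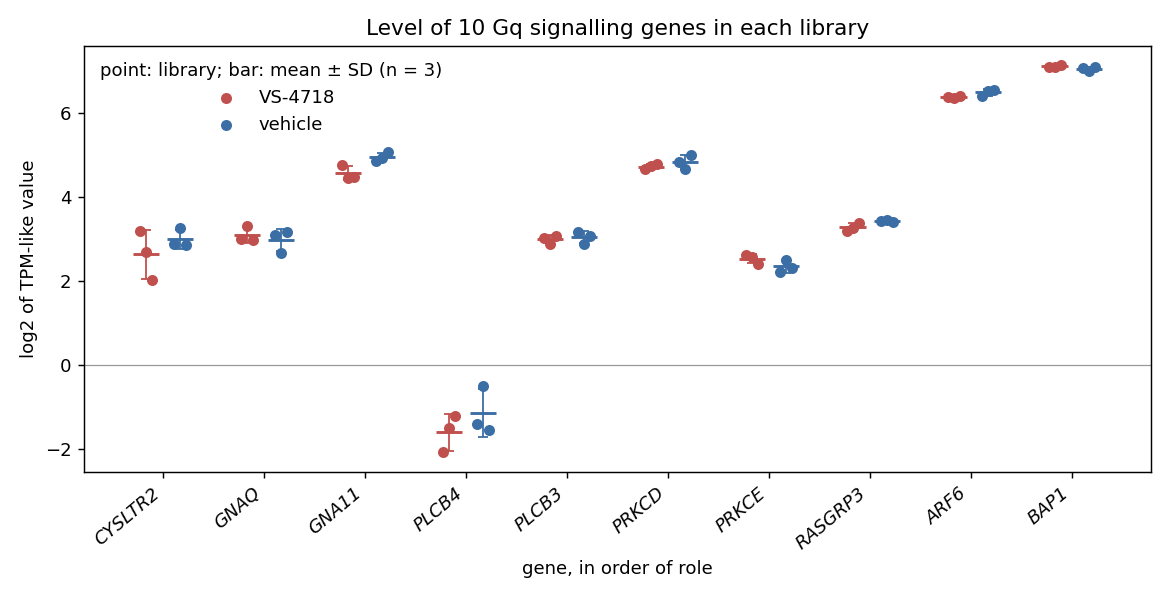
Level of the 10 genes in every library, as log2 of the TPM-like value, with VS-4718 libraries left of vehicle libraries for each gene; each point is a library and the bars give mean ± SD (n = 3). The genes span from about 7 log2 units for BAP1 to below 0 for PLCB4, a range far wider than the distance between the groups within any gene.

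CYSLTR2 encodes a cysteinyl leukotriene receptor that couples to Gq, the entry of the chain. It stood at 3.18, 2.68 and 2.03 log2 units with VS-4718, against 2.87, 3.25 and 2.86 in vehicle. The groups overlapped, and the VS-4718 libraries spread more widely (SD 0.58) than the vehicle libraries (SD 0.22). VS-4718 replicate 3 was the lowest of the 6 libraries and vehicle replicate 2 the highest. The log2 fold change was -0.36 with a limma SE of 0.29 and a 95% interval from -1.0 to 0.32 (adjusted p = 0.71), the widest interval among the 9 tested genes. Without VS-4718 replicate 3 the log2 fold change was -0.06, and without VS-4718 replicate 1 it was -0.64.

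GNAQ, the alpha subunit of Gq that is mutated in the 92.1 line, stood at 3.00, 3.31 and 2.96 log2 units with VS-4718, against 3.09, 2.67 and 3.16 in vehicle. The groups overlapped: VS-4718 replicate 2 was the highest library and vehicle replicate 2 the lowest. The log2 fold change of 0.12 (limma SE 0.17, 95% interval -0.29 to 0.52, adjusted p = 0.85) took the opposite sign, -0.04, when vehicle replicate 2 was left out. About as many rows had a larger change as a smaller one, since 48.4% of all rows tested exceeded this size in either direction.

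GNA11, the second alpha subunit of the family, had the smallest p of the 9 genes and still did not pass. It stood at 4.76, 4.46 and 4.47 log2 units with VS-4718, against 4.86, 4.93 and 5.06 in vehicle. Every VS-4718 library lay below every vehicle library, although VS-4718 replicate 1 came within 0.1 of vehicle replicate 1. The log2 fold change was -0.39 with a limma SE of 0.11 and a 95% interval from -0.64 to -0.13, a ratio of geometric means 23.5% below vehicle. Its unadjusted limma p was 0.0096 and its adjusted p 0.36; of all rows tested, 8.66% had a larger change in either direction. The difference was negative in each of the 13 other settings tried, between -0.49 and -0.33, with an adjusted p of 0.31 to 0.60.

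Because GNAQ and GNA11 do the same step, their difference within a library was also read; a scaling factor of a library cannot move it. GNA11 minus GNAQ was 1.76, 1.14 and 1.51 log2 units with VS-4718, against 1.77, 2.26 and 1.89 in vehicle. GNA11 had the higher level in all 6 libraries. The VS-4718 values lay below the vehicle values, with VS-4718 replicate 1 and vehicle replicate 1 nearly equal, and the group means were 1.47 ± 0.31 and 1.97 ± 0.26 (SD, n = 3 each). This difference was read after the values of both genes had been seen and was given no test.

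The phospholipases PLCB3 and PLCB4 are the direct effectors of the alpha subunits. PLCB3 stood at 3.01, 2.87 and 3.08 log2 units with VS-4718, against 3.17, 2.89 and 3.06 in vehicle, so the groups overlapped almost entirely. Its log2 fold change was -0.05 (limma SE 0.12, 95% interval -0.34 to 0.23, adjusted p = 0.90). PLCB4 was the lowest of the 10 genes and lay below the filter on low values, so it was not tested. It stood at -2.08, -1.50 and -1.22 log2 units with VS-4718, against -1.40, -0.50 and -1.56 in vehicle. The groups overlapped, and vehicle replicate 2 stood above the other 5 libraries. PLCB3 exceeded PLCB4 by 4.58 ± 0.44 log2 units within VS-4718 libraries and by 4.19 ± 0.70 within vehicle libraries (SD, n = 3 each).

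PRKCD and PRKCE encode the delta and epsilon isoforms of protein kinase C, which diacylglycerol activates without calcium. PRKCD stood at 4.67, 4.72 and 4.77 log2 units with VS-4718, against 4.83, 4.66 and 5.0 in vehicle. The VS-4718 libraries lay within 0.1 of their mean, inside the wider vehicle range, and the log2 fold change was -0.11 (limma SE 0.10, 95% interval -0.35 to 0.13, adjusted p = 0.75). It was -0.20 without vehicle replicate 2 and -0.023 without vehicle replicate 3. PRKCE stood at 2.62, 2.58 and 2.40 log2 units with VS-4718, against 2.22, 2.51 and 2.32 in vehicle. Its groups overlapped through VS-4718 replicate 3 and vehicle replicate 2, and the log2 fold change was 0.18 (limma SE 0.13, 95% interval -0.13 to 0.50, adjusted p = 0.68). Without vehicle replicate 1 it was 0.12. Both genes were well above the conventional isoform PRKCB, which needs calcium and averaged -0.52 log2 units with VS-4718 and -2.05 in vehicle, while PRKCA, another conventional isoform, averaged 2.41 and 2.61.

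RASGRP3 encodes the exchange factor that loads RAS with GTP when it binds diacylglycerol. It stood at 3.19, 3.27 and 3.39 log2 units with VS-4718, against 3.43, 3.45 and 3.40 in vehicle. The groups did not overlap, yet VS-4718 replicate 3 and vehicle replicate 3 were only about 0.01 apart. The log2 fold change was -0.15 (limma SE 0.10, 95% interval -0.38 to 0.08, adjusted p = 0.66). The other members of its family were scarcely represented: RASGRP2 averaged -5.55 log2 units with VS-4718 and -5.90 in vehicle, and RASGRP1 and RASGRP4 had no row among those used here.

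ARF6, a small GTPase of membrane traffic that carries signals of the mutant alpha subunit to several pathways in uveal melanoma, was the second most abundant of the 10. It stood at 6.38, 6.34 and 6.41 log2 units with VS-4718, against 6.39, 6.53 and 6.53 in vehicle. The groups touched at VS-4718 replicate 3 and vehicle replicate 1, and the log2 fold change was -0.11 (limma SE 0.06, 95% interval -0.25 to 0.04, adjusted p = 0.61). Among the ARF GTPases it stood near ARF4 (6.17 with VS-4718 and 6.26 in vehicle) and below ARF1 (8.28 and 8.25), ARF3 (7.52 and 7.47) and ARF5 (7.46 and 7.37).

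BAP1 was the most abundant of the 10 and had the narrowest interval. It stood at 7.10, 7.08 and 7.13 log2 units with VS-4718, against 7.05, 6.99 and 7.08 in vehicle. All VS-4718 libraries lay above all vehicle libraries, by less than 0.01 at the closest pair. The log2 fold change was 0.06 (limma SE 0.05, adjusted p = 0.70), and its 95% interval from -0.05 to 0.18 holds small changes only. It came to 0.037 as a log2 fold change without vehicle replicate 2 and to 0.097 with median scaling. On the TPM-like scale BAP1 averaged 137 ± 2.2 units with VS-4718 and 132 ± 4.2 in vehicle (SD, n = 3 each).

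**Figure D2:**
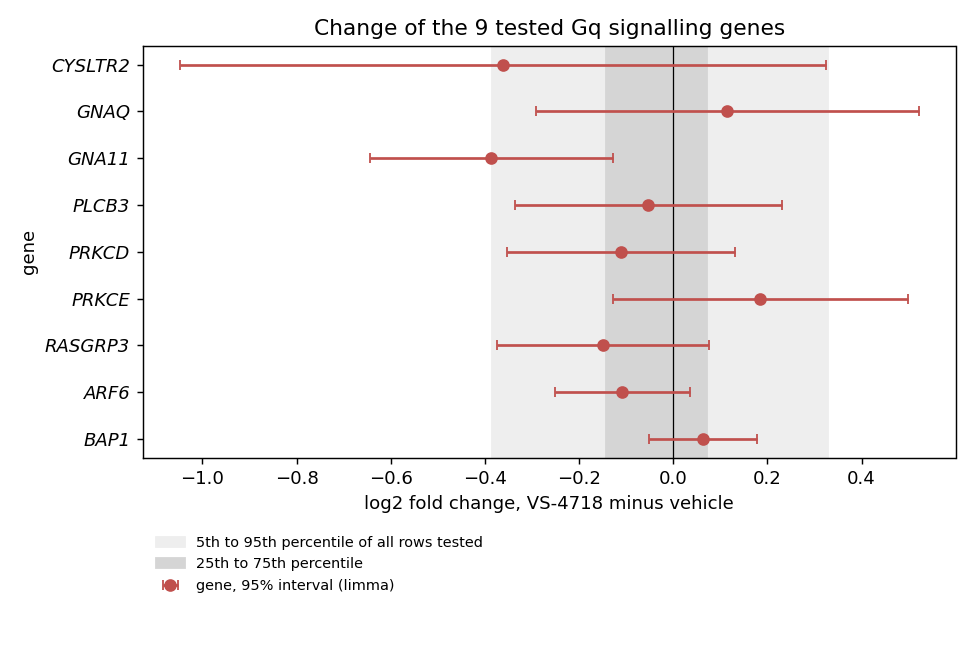
Log2 fold change (VS-4718 minus vehicle) of the 9 tested genes with limma's 95% interval; the grey bands hold the middle 50% and the middle 90% of all rows tested. The interval of GNA11, -0.64 to -0.13, is the only one of the 9 that does not include 0, and no adjusted p passed.

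The order of levels, by the mean of the 6 libraries, was BAP1 (7.07 log2 units), ARF6 (6.43), PRKCD (4.77), GNA11 (4.75), RASGRP3 (3.35), GNAQ (3.03), PLCB3 (3.01), CYSLTR2 (2.81), PRKCE (2.44) and PLCB4 (-1.38). TPM-like values are taken as per length, but the transcript set behind the rows is not known and row names follow mouse usage. Levels of different rows may therefore be biased, and this order describes rows of the table rather than the true abundance of the genes. BAP1 stood above 92.3% of all rows in the table, ARF6 above 88.5% and GNA11 above 72.3%. GNAQ and PLCB3 (above 49.7%) were close to the middle of the table, and PLCB4 stood above only 11.5%. Neighbours in this order were apart in both groups for BAP1 and ARF6, ARF6 and PRKCD, GNA11 and RASGRP3, and PRKCE and PLCB4. PRKCD and GNA11, GNAQ and PLCB3, and PLCB3 and CYSLTR2 overlapped in both groups. RASGRP3 and GNAQ, and CYSLTR2 and PRKCE, overlapped with VS-4718 and were apart in vehicle.

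The rows whose pattern over the 6 libraries was most like that of GNAQ were DHX33, an RNA helicase, SAP18, a nuclear protein of splicing and repressor complexes, and ACAP3, a GTPase-activating protein for ARF6. Likeness was measured as the root mean square difference of the 6 log2 values after each row's own mean was subtracted. It was 0.05 for DHX33, 0.05 for SAP18 and 0.06 for ACAP3, against a median of 0.26 over all rows tested. Each of them was lowest in vehicle replicate 2, as GNAQ was. With 6 libraries and 7458 tested rows with a human match to choose from, this describes the rows and nothing more.

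Other genes of the pathway were taken from 9 lists holding 189 genes, of which 144 had a row and 111 were abundant enough to be tested. None of the 111 passed limma over all rows tested; 10 had an unadjusted p under 0.05, 1 of them higher and 9 lower with VS-4718, and limma without the mean-variance trend called 0 as well. These 10 are 9.01% of the 111, against 9.76% of all rows. The groups did not overlap for 15 of the 111 (13.5%, against 16.4% of all rows), and the median log2 fold change was -0.05, against -0.03 over all rows tested. A lower mean with VS-4718 was seen in 73 of the 111 (65.8%), against 58.2% of all rows tested. The counts and medians of the lists below stand beside these same values. PTK2, the gene of the drug target, stood at 4.03, 4.15 and 4.20 log2 units with VS-4718, against 4.70, 4.22 and 3.90 in vehicle (log2 fold change -0.15, limma SE 0.20, adjusted p = 0.84). Since this is RNA of bulk cells, fewer cells of a kind and less RNA per cell cannot be told apart.

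At the receptor level, 8 of 29 Gq-coupled receptors had a row and 2 were tested. EDNRB, the endothelin receptor of melanocytes, averaged 5.88 ± 0.05 log2 units with VS-4718 and 5.99 ± 0.01 in vehicle (SD, n = 3 each). HTR2B, a serotonin receptor, averaged 2.84 ± 0.07 and 2.98 ± 0.08. The groups did not overlap in either, and neither passed (adjusted p = 0.56 and 0.68 in limma).

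Of 16 tested genes for alpha, beta and gamma subunits, 9 had a higher and 7 a lower mean with VS-4718, none with groups apart, and the median was 0.02. GNB4, a beta subunit, averaged 3.86 ± 0.27 log2 units with VS-4718 and 4.16 ± 0.18 in vehicle. GNG5, a gamma subunit, averaged 5.47 ± 0.13 and 5.09 ± 0.53, with vehicle replicate 1 well below the rest. GNAS, the alpha subunit that stimulates adenylyl cyclase, was the most abundant of these subunits at 10.70 log2 units with VS-4718 and 10.65 in vehicle.

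Among the RGS, GRK and arrestin genes, which shorten or redirect G protein signals, 8 of 11 had a lower mean and the median was -0.13. RGS2, a GTPase-activating protein for Gq alpha subunits, stood at 3.47, 3.25 and 3.53 log2 units with VS-4718, against 3.84, 4.38 and 4.02 in vehicle. RGS3, of the same family, stood at 1.42, 0.59 and 1.38 with VS-4718, against 1.95, 2.05 and 2.23 in vehicle. In both genes every VS-4718 library lay below every vehicle library. The log2 fold change was -0.66 (limma SE 0.16) for RGS2 and -0.95 (limma SE 0.25) for RGS3, with unadjusted p of 0.0044 and 0.0072. Neither passed over all rows (adjusted p = 0.30 and 0.35); that of RGS2 was the smallest adjusted p of the 111 genes.

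**Figure D3:**
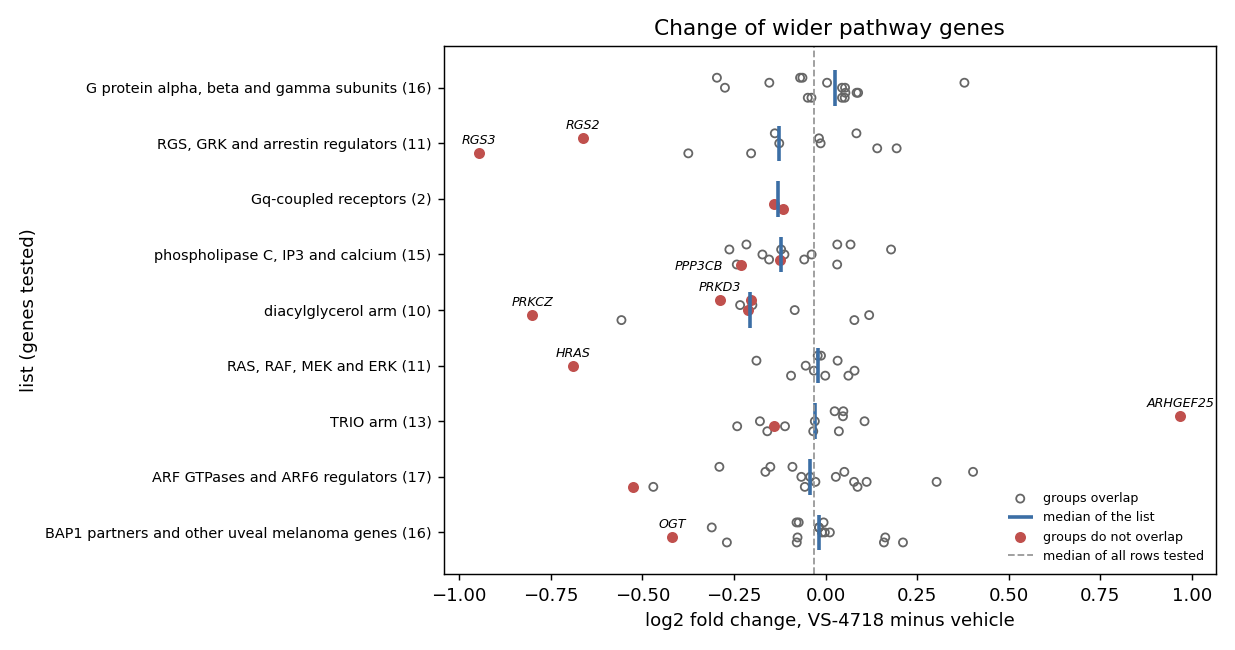
Log2 fold change (VS-4718 minus vehicle) of the 111 tested genes of the 9 pathway lists; filled points are genes whose groups did not overlap, blue bars are list medians, the dashed line is the median of all rows tested, and named points are those that the naming rule took and whose unadjusted p was under 0.05 with groups apart. RGS3 and PRKCZ lie farthest to the left and ARHGEF25 farthest to the right, and none of them passed over all rows. These genes have low levels, above only 33.4%, 30.7% and 34.0% of all rows in the table, and fell out under the stricter filter.

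On the side of phospholipase C, inositol trisphosphate and calcium, 11 of 15 tested genes had a lower mean, with a median of -0.12. PPP3CB, a catalytic subunit of the calcium-dependent phosphatase calcineurin, averaged 3.80 ± 0.06 log2 units with VS-4718 and 4.03 ± 0.11 in vehicle (unadjusted p = 0.041, adjusted p = 0.49 in limma). CALM3, one of the calmodulin genes, averaged 6.92 ± 0.15 and 7.09 ± 0.08, with groups that overlapped.

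On the diacylglycerol side, 8 of 10 tested genes had a lower mean and 4 of the 10 had an unadjusted p under 0.05, all of them lower, against 58.2% and 6.74% of all rows tested; the median was -0.21. PRKCZ, an atypical protein kinase C that diacylglycerol does not activate, stood at 1.10, 1.18 and 0.46 log2 units with VS-4718, against 1.79, 1.78 and 1.56 in vehicle. PRKD3, a protein kinase D that acts below protein kinase C, stood at 4.49, 4.31 and 4.59 with VS-4718, against 4.78, 4.78 and 4.69 in vehicle. The groups did not overlap in either gene, and the log2 fold changes were -0.80 (limma SE 0.23, adjusted p = 0.36) and -0.29 (limma SE 0.09, adjusted p = 0.40). The other 2 of the 4, named after their values were seen, were PRKCI, also an atypical isoform (-0.56, limma SE 0.21), and MARCKS, a membrane substrate of protein kinase C (-0.21, limma SE 0.09). The count of 4 thus includes 2 isoforms, PRKCZ and PRKCI, that diacylglycerol does not activate. Genes of this list below the filter were not tested, and their means moved in both directions. Among them, PRKCB stood at -1.56, 0.365 and -0.374 log2 units with VS-4718, against -2.345, -2.134 and -1.673 in vehicle. All VS-4718 libraries lay above all vehicle libraries, with means of -0.52 and -2.05, but VS-4718 replicate 1 came close to vehicle replicate 3. The VS-4718 libraries spread widely (SD 0.97), and the gene stood above only 11.9% of all rows in the table.

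Further down, 8 of 11 tested genes of the RAS, RAF, MEK and ERK cascade had a lower mean, with a median of -0.02. HRAS averaged 0.75 ± 0.31 log2 units with VS-4718 and 1.43 ± 0.24 in vehicle with groups apart (adjusted p = 0.40). NRAS, the most abundant RAS gene here, averaged 7.69 and 7.65. In the TRIO arm, 7 of 13 tested genes had a lower mean, with a median of -0.03. ARHGEF25, an exchange factor that Gq alpha subunits activate directly, stood at 2.04, 2.45 and 1.96 log2 units with VS-4718, against 1.62, 0.34 and 1.59 in vehicle. Its groups did not overlap, but its log2 fold change of 0.97 (limma SE 0.36, adjusted p = 0.48) was 0.55 without vehicle replicate 2, which stood far below the others. ROCK2, a kinase that RHOA activates, averaged 4.33 ± 0.07 and 4.47 ± 0.06, and TRIO itself averaged 1.82 and 1.72.

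Of the ARF GTPases and ARF6 regulators, 10 of 17 tested genes had a lower mean, with a median of -0.04. PLD1, a phospholipase D that ARF proteins activate, averaged 0.73 ± 0.13 log2 units with VS-4718 and 1.26 ± 0.42 in vehicle with groups apart. PIP5K1A, a lipid kinase activated by ARF6, averaged 3.77 ± 0.25 and 4.06 ± 0.07 with groups that overlapped. Neither passed (adjusted p = 0.55 each in limma). IQSEC1, an exchange factor for ARF6, spread from 4.99 to 5.90 log2 units with VS-4718 and from 4.36 to 5.51 in vehicle.

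In the list of BAP1 partners and other uveal melanoma genes, 12 of 16 tested genes had a lower mean. This was 75%, against 58.2% of all rows tested, and the median was -0.02, against -0.03 over all rows. OGT, the sugar transferase that binds in the BAP1 complex, stood at 3.00, 3.08 and 2.87 log2 units with VS-4718, against 3.47, 3.20 and 3.54 in vehicle. All VS-4718 libraries lay below all vehicle libraries, with a log2 fold change of -0.42 (limma SE 0.13, unadjusted p = 0.013, adjusted p = 0.38). FOXK1, a forkhead factor that recruits BAP1, averaged 4.37 ± 0.15 and 4.21 ± 0.25. SF3B1 (6.97 with VS-4718 and 6.98 in vehicle) and EIF1AX (2.73 and 2.74), both mutated in subsets of uveal melanoma, had group means within 0.02 log2 units of each other.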

How the data were processed

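The authors deposited 1 table of log2 values, with a row per gene symbol and a column for each of the 6 libraries. The submitters' processing notes name kallisto, without a version, and GRCh38; index, annotation and filters: not given in the sources used here. That the deposited log2 values are on a TPM-like scale follows from the values, since on the linear scale the columns sum to between 836527 and 840714.

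Values were fitted as deposited with limma 3.58.1 in R 4.3.3 (limma-trend, group as the only term) on the 9229 rows with a mean above the lowest 25% (mean over 0.70), two-sided, with Benjamini-Hochberg adjustment and a threshold of 0.05. Single genes were given no permutation test, since 3 against 3 cannot reach a p under 0.1. The fit was also run on simulated data with independent noise, as a check of the code only. That run is not used to judge the power for changes of the size seen here. The members and lists were chosen with earlier results of these data known. Named were all 10 members, PTK2 and the 3 rows with a human match most like GNAQ. Of each list, any gene past the threshold and the 2 with the smallest limma p were taken, of which 1 is left out here. PRKCI, MARCKS, PRKCA, PRKCB, RASGRP2, GNAS, NRAS, TRIO, IQSEC1, SF3B1, EIF1AX and the other ARF genes were named outside this rule. Alternatives tried were the replicate number as a block, leaving out each library, median scaling, no filter, a stricter filter (lowest 40%), log2 of the value plus 1, limma without trend, and human names only. Row names were matched through GENCODE and RefSeq tables (9351 current symbols, 290 synonyms). Figures were drawn with matplotlib 3.10.9.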

Additional observations from a re-analysis of the deposited data

How the results depend on the processing

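No member passed the threshold in the main limma fit or in any of the 13 alternatives (0 each), and none of the 111 wider pathway genes did either (0 each). At an unadjusted limma p under 0.05 there were 1 or 2 members, GNA11 always among them, joined by CYSLTR2 without VS-4718 replicate 1 and by ARF6 without vehicle replicate 1. Over all rows, the same settings had between 706 (of 9229, without VS-4718 replicate 2) and 1079 (of 12306, no filter) at this threshold. The settings reuse the same libraries, so they are not separate results for GNA11. The members' median log2 fold change ran from -0.13 to -0.04. Over all rows, 12 were called, but 0 under the replicate block (793 with an unadjusted p under 0.05) and 0 in limma without trend (910). Leaving out a library gave 0 to 7 called rows: 7 without vehicle replicate 2, 1 when VS-4718 replicate 1 was dropped, and 0 for each of the other 4. The cause was not tested. Residuals of libraries with the same number correlated at 0.14, 0.05 and 0.03 over rows, and those with different numbers at -0.09 to 0.05. Those of VS-4718 replicate 3 correlated more closely with vehicle replicate 2 (0.05) than with its own number. These weak correlations do not settle whether the numbers mark pairs, and the main fit did not take them as such. In limma with the block the adjusted p of GNA11 was 0.52. Among the 9 tested members, PTK2 and the genes taken by the naming rule, 6 changed sign, each when a library was left out: GNAQ ran from -0.038 to 0.21, PLCB3 from -0.13 to 0.011, PTK2 from -0.34 to 0.067, DHX33 from -0.093 to 0.17, SAP18 from -0.085 to 0.18 and ACAP3 from -0.044 to 0.24. The others of these kept their sign in every alternative that was run. PLCB4 was fitted only without a filter, and the fold changes of genes named outside the rule were not followed through the alternatives. With no read counts in the table, counting error cannot be set apart from other spread.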
